A study of Mus musculus with 8 samples.

Results

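Genes of cholesterol synthesis were described in whole mouse brain after methanol. The set was chosen by gene name, with earlier results of these data known. It holds 8 genes, namely Hmgcs1, Idi1, Fdps, Fdft1, Sqle, Cyp51, Dhcr7 and Insig1. Of these genes, 7 had at least 1 probe on the Illumina MouseRef-8 BeadChip, a glass chip on which labelled RNA binds to oligonucleotide probes carried on beads. Fdft1 was found under neither its symbol nor a synonym and was not analysed here. The 7 genes had 11 of the 25697 probes. None of the 8 genes takes up lipoprotein, so genes of uptake are described from a list of their own.

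Brains of 4 methanol arrays were set against brains of 4 saline arrays. The labels give the mice as male, with 120 mg/kg methanol in a volume of 350 µl, or 350 µl of normal saline in place of methanol, and brains taken after 2 h. They name no strain or age, and do not say whether an array holds RNA of 1 mouse or of a pool. The methods of the study instead describe BALB/c mice, an inbred strain, that inhaled vapor of methanol or of water, and they give a shorter exposure and larger groups than the labels. Route, control fluid, time and group size are therefore uncertain here, and the groups are called methanol and saline after the labels. The p-values measure only the spread between these arrays. Xist, which is transcribed from an inactive X chromosome, was detected on all 8 arrays, with a mean log2 intensity of 8.86 in methanol and 8.94 in saline for its brighter probe. The Y-linked genes Kdm5d and Eif2s3y were not detected on any array, and Uty was detected on 3 methanol arrays and 1 saline array. These values go against the male sex in the labels.

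Cells build cholesterol from acetyl-CoA through mevalonate, isoprenoid diphosphates, squalene and lanosterol. When sterol is scarce in the membrane of the endoplasmic reticulum, the transcription factors SREBP are carried to the Golgi apparatus by Scap, cut there, and switch on most genes of this pathway. When sterol is plentiful, Insig proteins hold Scap back. Plasma lipoproteins hardly cross the blood-brain barrier, so brain makes its own cholesterol, most of it for myelin and for the membranes of neurons and astrocytes. It removes the surplus by hydroxylation and export.

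SREBP binds near the start of its target genes, often beside a site of the factor NF-Y, and stretches of promoter are shown here because the 7 measured genes of the set had differences of the same sign, of which 3 passed the test. RefSeq promoter sequence (GRCm38.p6) was at hand for 5 of the 8 genes, and the 250 bases before the start site were read. No window was at hand for Fdps, Sqle or Fdft1, so of the 3 genes that passed only Hmgcs1 was read. The letters TCACNCCAC, a sterol regulatory element in which N is any base, were found in 346 of 32851 such windows (1.05%), on either strand. The letters CCAAT, the core of an NF-Y site, were found in 11120 windows (33.8%), and both in 107 windows (0.326%). The windows of Hmgcs1, Idi1 and Cyp51 are printed 5′ to 3′ on the strand of the gene, with matches to either motif in capitals. ATTGG is CCAAT read on the other strand, and no match overlapped another.
Hmgcs1: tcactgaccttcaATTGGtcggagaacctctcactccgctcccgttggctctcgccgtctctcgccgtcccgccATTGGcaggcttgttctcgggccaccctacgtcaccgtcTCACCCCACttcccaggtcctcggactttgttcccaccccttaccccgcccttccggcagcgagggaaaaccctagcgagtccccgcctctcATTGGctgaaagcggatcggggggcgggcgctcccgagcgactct
Idi1: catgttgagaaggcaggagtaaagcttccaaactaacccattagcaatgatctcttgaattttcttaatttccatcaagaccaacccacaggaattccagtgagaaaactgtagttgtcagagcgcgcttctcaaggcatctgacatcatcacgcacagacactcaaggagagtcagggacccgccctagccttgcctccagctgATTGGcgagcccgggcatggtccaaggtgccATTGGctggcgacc
Cyp51: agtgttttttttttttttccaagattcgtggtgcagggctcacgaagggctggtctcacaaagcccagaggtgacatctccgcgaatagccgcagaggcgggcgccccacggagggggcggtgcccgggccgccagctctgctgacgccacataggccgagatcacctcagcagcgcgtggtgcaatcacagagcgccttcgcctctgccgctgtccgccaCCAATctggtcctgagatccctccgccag
The window of Hmgcs1 lies at chr13:119690101-119690350 on the plus strand, that of Idi1 at chr13:8885356-8885605 on the plus strand, and that of Cyp51 at chr5:4104698-4104947 on the minus strand. Hmgcs1 held 1 sterol regulatory element, TCACCCCAC, which began 137 bases before the start site, and 3 CCAAT boxes, which began 237, 176 and 45 bases before it. Idi1 held 2 CCAAT boxes, which began 45 and 14 bases before the start site, and Cyp51 held 1, which began 29 bases before it. Insig1 held 1 CCAAT box. Of the 3 start sites of Dhcr7, 1 had 2 CCAAT boxes and the other two had none. TCACNCCAC was not found in the windows of Idi1, Cyp51, Insig1 or Dhcr7. These matches describe letters only, and binding was not measured.

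The log2 intensity of the brightest probe was lower in methanol for 7 of 7 genes, by 0.18 for Insig1 up to 0.50 for Fdps. Fdps, Sqle and Hmgcs1 fell past the threshold of limma's moderated test (two-sided, Benjamini-Hochberg adjusted p under 0.05 over all probes tested), and Idi1, Cyp51, Dhcr7 and Insig1 did not. The 3 genes called were all lower, and of 8528 genes tested, 2.52% were called lower, 3.4% higher and 5.92% in either direction. The median change of the 7 genes was -0.36 on the log2 scale, beside a median of 0.0037 for all genes tested, of which 49.2% had a negative change. The genes were chosen with earlier results of these data known, so these shares describe the set and do not test it. All values given as log2 intensity were corrected for background and quantile normalized. In whole brain, fewer cells of a type and less RNA per cell cannot be told apart.

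Counted by probe, 10 of the 11 probes were detected on enough arrays to be tested (detection p under 0.05 on at least 4 of the 8 arrays), and all 10 had a negative change, with a median of -0.34. Of these, 4 were called lower, beside 2.49% of 11938 probes, and 0 were called higher, beside 3.12% (5.6% in either direction). By unadjusted p under 0.05, 0 were higher and 7 were lower, beside 20.7% of all tested probes in either direction. For 5 of the 10 probes every methanol array was below every saline array, which was so for 5.77% of all tested probes. For 0 of the 10 every methanol array was above, beside 6.6%, and groups did not overlap in either direction for 12.4%. Counted by gene, this held for 4 of the 7 (Fdps, Sqle, Cyp51 and Dhcr7), beside 5.7% of all tested genes (7.09% with methanol above and 12.8% in either direction).

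**Figure D1:**
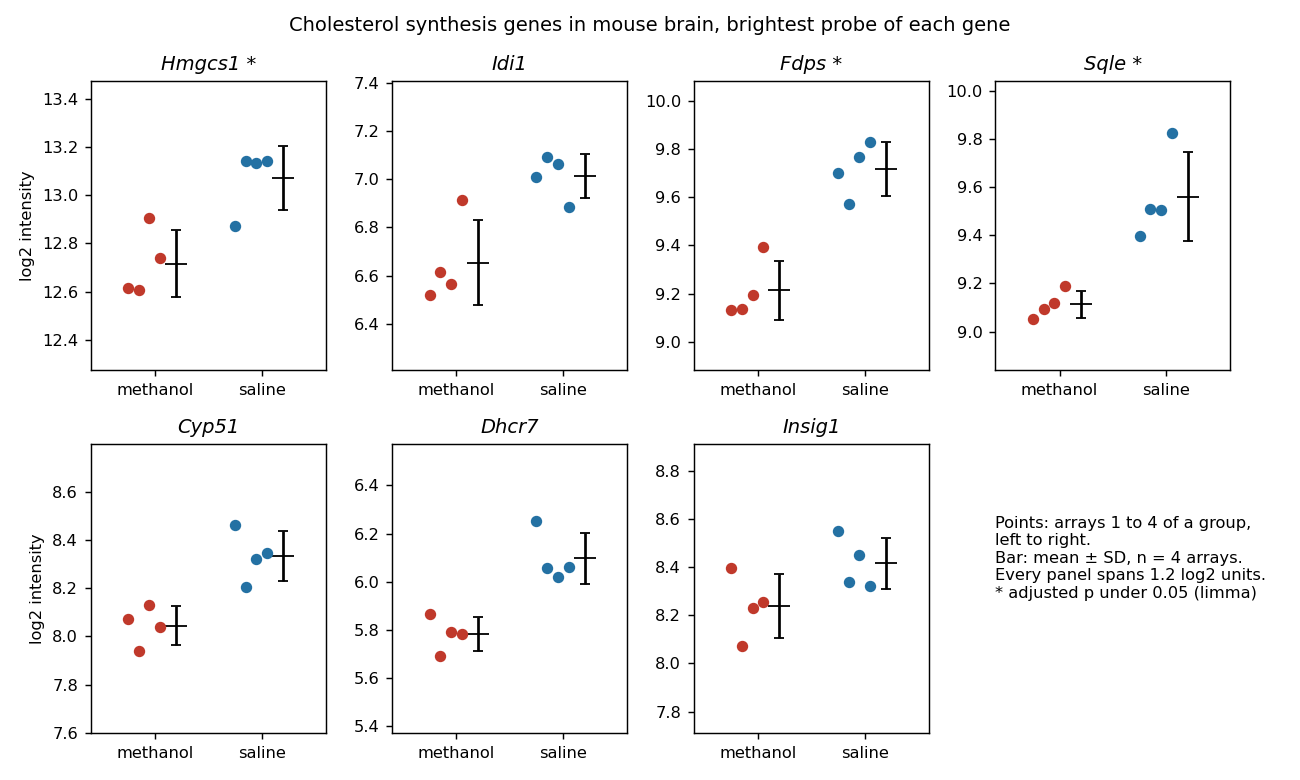
Log2 intensity (vertical axis) of the brightest probe of each of the 7 genes on the 4 methanol arrays (red) and the 4 saline arrays (blue), with the mean and SD as a black bar and every panel spanning the same number of log2 units. Fdps, Sqle, Cyp51 and Dhcr7 show methanol arrays that are all below the saline arrays, while Hmgcs1, Idi1 and Insig1 overlap.

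Hmgcs1 makes HMG-CoA, the precursor of mevalonate. Its log2 intensities were 12.61, 12.61, 12.91 and 12.74 on the methanol arrays, against 12.87, 13.14, 13.14 and 13.14 on the saline arrays. Methanol array 3 lay above saline array 1, which was the low array of its group, and otherwise the groups were apart. Hmgcs1 averaged 12.72 ± 0.14 in methanol and 13.07 ± 0.13 in saline (SD, n = 4 arrays each), a fall of 0.36 on the log2 scale (SE 0.088, 95% confidence interval -0.54 to -0.17, adjusted p = 0.028). In the table that the authors had normalized between arrays, and that still includes the background, its intensity was 6900 ± 672 in methanol and 8790 ± 764 in saline. The call was lost without methanol replicate 1, 2 or 4 or saline replicate 2, 3 or 4. The change of Hmgcs1 stayed between -0.42 and -0.32 in all 8 fits without an array.

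Idi1 turns isopentenyl diphosphate into its more reactive isomer, the starter unit of isoprenoid chains. Its log2 intensities were 6.52, 6.61, 6.57 and 6.91 in methanol, against 7.01, 7.09, 7.06 and 6.89 in saline. The groups overlapped through methanol array 4 and saline array 4 only. The difference was -0.36 (SE 0.12, 95% confidence interval -0.61 to -0.10) and did not pass, with an adjusted p of 0.097. Without methanol replicate 4 it was -0.45 and passed, with an adjusted p of 0.047, while in the other 7 fits without an array it did not pass (adjusted p of 0.124 to 0.211).

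Fdps joins the isoprenoid units into farnesyl diphosphate, from which both sterols and the lipid anchors of proteins are made. It had the largest change of the 7 genes. Its log2 intensities were 9.13, 9.14, 9.20 and 9.39 on the methanol arrays, against 9.70, 9.57, 9.77 and 9.83 on the saline arrays. The highest methanol array stayed below the lowest saline array. Fdps fell by 0.50 on the log2 scale, which is 1.42-fold lower (SE 0.087, 95% confidence interval -0.69 to -0.32, adjusted p = 0.0033). The exact permutation test over the 70 splits of the arrays gave p = 0.0286 (two-sided), the smallest that 4 against 4 arrays allow. Any gene whose groups do not overlap reaches this smallest value, and 12.8% of all tested genes had no overlap. On the brightest probes, the exact permutation test also gave p = 0.0286 for Sqle, Cyp51 and Dhcr7. The exact permutation test gave p = 0.0571 for Hmgcs1 and for Idi1, and p = 0.0857 for the brightest probe of Insig1. In the table normalized by the authors, the intensities of Fdps were 710.1, 711.3, 735.2 and 820.3 in methanol, against 981.7, 909.3, 1020.2 and 1059.6 in saline.

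Sqle oxidizes squalene to its epoxide, a slow step of the pathway. The gene had 2 probes, and both fell. The brighter probe read 9.05, 9.09, 9.12 and 9.19 in methanol, against 9.40, 9.51, 9.51 and 9.83 in saline, with no overlap. The methanol arrays were close together (SD 0.056) and the saline arrays were wider spread (SD 0.18), mostly through saline array 4. The fall of the brighter probe was 0.45 on the log2 scale (SE 0.094, 95% confidence interval -0.65 to -0.24, adjusted p = 0.013). The dimmer probe of Sqle read 7.38, 7.27, 7.30 and 7.39 in methanol, against 7.54, 7.73, 8.03 and 7.91 in saline. It fell by 0.47 (SE 0.11, 95% confidence interval -0.71 to -0.23, adjusted p = 0.027), and its groups did not overlap either. The call of the brighter probe held in all 8 fits without an array, and that of the dimmer probe was lost without methanol replicate 1, 2 or 3 or saline replicate 2, 3 or 4 (changes of -0.56 to -0.39).

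Past lanosterol, the set holds 2 enzymes that had no overlap between the groups and did not pass the test. Cyp51 removes a methyl group from lanosterol. Its log2 intensities were 8.07, 7.94, 8.13 and 8.04 in methanol, against 8.46, 8.21, 8.32 and 8.35 in saline, a difference of -0.29 (SE 0.090, 95% confidence interval -0.48 to -0.09, adjusted p = 0.081). Dhcr7 carries out the final reduction to cholesterol in a branch of the pathway. It read 5.87, 5.69, 5.79 and 5.78 in methanol, against 6.25, 6.06, 6.02 and 6.06 in saline, a difference of -0.31 (SE 0.13, 95% confidence interval -0.59 to -0.03, adjusted p = 0.189). In the table normalized by the authors, the difference of Cyp51 was -0.19 and that of Dhcr7 -0.094.

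Insig1 is a sensor of sterols and itself a target of SREBP, and it had the smallest change of the 7 genes. Its brightest probe read 8.40, 8.07, 8.23 and 8.26 in methanol, against 8.55, 8.34, 8.45 and 8.32 in saline. The groups overlapped, and the difference of -0.18 (SE 0.095, 95% confidence interval -0.38 to 0.03) did not pass, with an adjusted p of 0.32. The other tested probes of Insig1 differed by -0.15 (adjusted p = 0.483, SE 0.11) and by -0.31 (adjusted p = 0.356, SE 0.18). The dimmer of them was detected on 3 of the 4 methanol arrays and on 4 of the 4 saline arrays. Its remaining probe was not detected on any of the 8 arrays.

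The 7 genes were also read together within each array, as the mean deviation of their log2 intensity from each gene's mean over the 8 arrays. This mean was -0.19, -0.26, -0.15 and -0.10 on the methanol arrays, against 0.18, 0.13, 0.18 and 0.20 on the saline arrays. On methanol array 2 none of the 7 genes was above its own mean, and on each of the other methanol arrays 1 was (Insig1 on array 1, Hmgcs1 on array 3 and Idi1 on array 4). On the saline arrays 6, 7, 7 and 6 of the 7 genes were above their mean, with Hmgcs1 the exception on array 1 and Insig1 on array 4. Genes of an array share its labelling and normalization and are not replicates.

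Among all other genes tested, the profiles closest to the mean profile of the set over the 8 arrays were those of Tfip11, Ube2e1, Mzt1, Krt8 and F2r. Their root-mean-square differences from it were 0.052, 0.055, 0.055, 0.056 and 0.058 log2 units, beside a median of 0.246 over the 8521 genes ranked. Tfip11, a protein of the spliceosome, differed by -0.38 (adjusted p = 0.030), Mzt1, a partner of gamma-tubulin, by -0.36 (adjusted p = 0.019), and F2r, a thrombin receptor, by -0.37 (adjusted p = 0.019). Ube2e1, a ubiquitin-conjugating enzyme, differed by -0.33 (adjusted p = 0.092) and Krt8, a keratin, by -0.29 (adjusted p = 0.199). On leaving out each array, the calls of Tfip11, Mzt1 and F2r held in 2, 5 and 5 of 8 fits, and all 3 were lost with median scaling (adjusted p of 0.177, 0.270 and 0.269). The ranking uses the arrays of both groups, so a like difference between methanol and saline is part of the likeness.

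The other enzymes of the pathway did not pass when each was read from its brightest probe. Of 16 such enzymes listed, 12 had a probe and 10 were tested. Of those tested, 0 were called higher and 0 lower, beside 5.92% of all tested genes in either direction. The change was negative for 9 of the 10, with a median of -0.14 and a range of -0.33 to 0.01, so that the median lay between that of the 7 genes and that of all genes. Lss, which closes squalene epoxide to lanosterol, was detected on 0 of the 4 methanol arrays and 2 of the 4 saline arrays, so it was not tested.

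Nsdhl, a dehydrogenase that helps to strip methyl groups from the sterol ring, held the largest change in this list and is described further because of its values. Its brightest probe differed by -0.33 (SE 0.14, adjusted p = 0.189). A dimmer probe read 6.12, 6.02, 6.08 and 5.89 in methanol, against 6.55, 6.58, 6.72 and 6.78 in saline, and fell by 0.63 (SE 0.12, adjusted p = 0.0072). Another fell by 0.86 (SE 0.19, adjusted p = 0.016), and the dimmest, detected on 1 of the 4 methanol arrays, differed by -0.38 (SE 0.18, adjusted p = 0.245). All 4 probes of Nsdhl were lower on average in methanol, and 2 of the 4 passed. The call of the larger fall was lost without saline replicate 3, with an adjusted p of 0.060 and changes of -0.99 to -0.71 over the fits without an array. The call of the probe that fell by 0.63 held in all 18 alternatives.

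**Figure D2:**
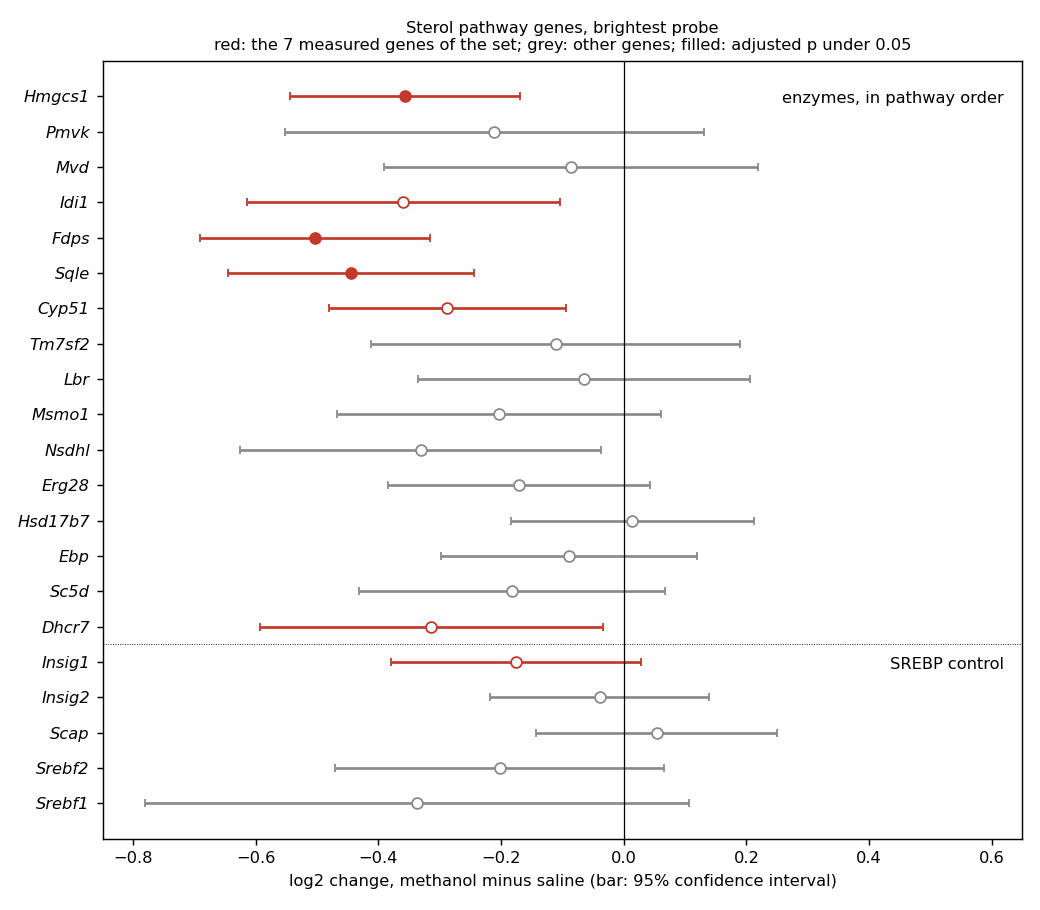
Log2 change, methanol minus saline (horizontal axis), of the brightest probe of each tested enzyme in the order of the pathway and, below the dotted line, of SREBP control genes, as points with 95% confidence intervals. The 7 genes of the set are red, other genes are grey, and filled points (Hmgcs1, Fdps and Sqle) passed an adjusted p of 0.05.

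Among the genes that control SREBP no change passed the test. Of 11 listed, 9 were tested, with a median of -0.03 and a range of -0.34 to 0.14. Calls were 0 higher and 0 lower, beside 5.92% of all tested genes in either direction. Srebf2, the SREBP of sterol synthesis, averaged 7.50 ± 0.12 in methanol and 7.70 ± 0.25 in saline, a difference of -0.20 (SE 0.13, adjusted p = 0.393). Without saline replicate 4 it was -0.083. Srebf1, more tied to fatty acids, differed by -0.34 (SE 0.21, adjusted p = 0.387) and was detected on 2 of the 4 methanol arrays. Without methanol replicate 4 the difference of Srebf1 was -0.16. Scap differed by 0.05 (SE 0.092, adjusted p = 0.799) and Insig2, a relative of Insig1, by -0.04 (SE 0.083, adjusted p = 0.845). SREBP is controlled by cleavage, and its protein was not measured here.

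Uptake and transport of sterol had no called gene. Of 13 genes listed, 8 had a probe and 7 were tested, with a median of -0.05. Calls were 0 higher and 0 lower, beside 5.92% of all tested genes in either direction. Apoe, the main protein of brain lipoproteins, read 10.21, 10.52, 10.47 and 10.32 in methanol, against 10.64, 10.50, 11.10 and 10.55 in saline. Its difference of -0.32 (SE 0.12) did not pass (adjusted p = 0.142). Saline array 3, the highest for Apoe, is also the array on which Ttr, a transcript of choroid plexus, was highest. On saline array 2, where Ttr was next highest (11.50), Apoe was the lowest of the saline arrays. A link between Ttr and Apoe was not tested. Without saline replicate 3 the difference of Apoe was -0.19.

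Of 6 tested genes of sterol export and turnover, 2 were called higher and 0 lower, beside 3.4% and 2.52% of all tested genes. Changes were positive for 3 of the 6 and negative for 3, between -0.33 and 0.65, with a median of -0.02. Abcg1, an exporter of sterol to lipoproteins and a target of the oxysterol receptors LXR, read 7.39, 7.31, 7.46 and 7.12 in methanol, against 6.99, 6.95, 6.89 and 6.76 in saline. It rose by 0.42 (SE 0.11, adjusted p = 0.037), and the groups did not overlap. Cyp27a1, a mitochondrial enzyme that hydroxylates the side chain of cholesterol, read 7.35, 6.90, 6.78 and 7.03 in methanol, against 6.48, 6.50, 6.50 and 5.98 in saline. It rose by 0.65 (SE 0.15, adjusted p = 0.025). Of its other probes, the dimmest rose by 0.92 (adjusted p = 0.023, SE 0.22), and the remaining probe differed by 0.66 (adjusted p = 0.073, SE 0.20) and did not pass. The call of Abcg1 was lost without methanol replicate 1, 2 or 3 or saline replicate 2, 3 or 4 (changes of 0.38 to 0.49 over the 8 fits without an array). That of Cyp27a1 was lost without methanol replicate 1 or 4 or saline replicate 4 (0.52 to 0.73), and that of its dimmest probe, detected on 2 of the 4 saline arrays, without methanol replicate 1 or 2 or saline replicate 3 or 4 (0.72 to 1.05).

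Genes of fatty acid synthesis, which SREBP also controls, had 0 genes called in either direction among 10 tested of 12 listed. Among all tested genes this share was 5.92%. Their median was -0.02, with 5 negative and 5 positive changes between -0.30 and 0.25. A difference between this list and the cholesterol genes was not tested.

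**Figure D3:**
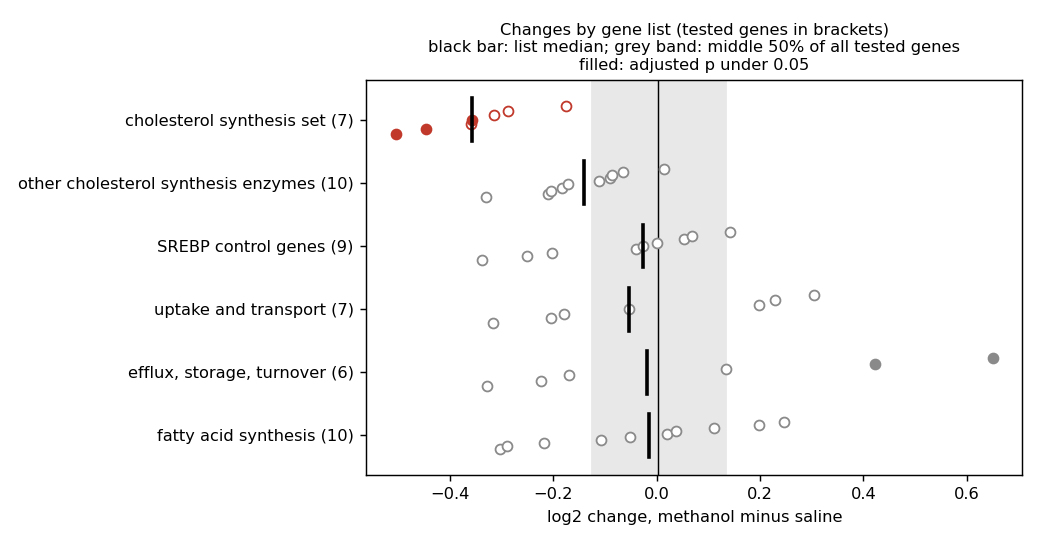
Log2 change, methanol minus saline (horizontal axis), of the tested genes of 6 lists, read from the brightest probe, with the median of each list as a black bar, the median of all tested genes as a thin line and a grey band from their lower to their upper quartile. The cholesterol synthesis set has a median of -0.36, the other enzymes of the pathway -0.14, and the remaining lists lie between -0.05 and -0.02.

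The cell types of brain were read from marker lists, each summed per array over the linear, background-corrected and normalized intensities of its brightest probes. Oligodendrocyte markers had a summed intensity of 26706 to 38416 on the methanol arrays, against 17918 to 26504 on the saline arrays, without overlap, and of 8 tested 2 were higher (Cldn11 and Mal) and 1 lower (Opalin). Among all tested genes 5.92% were called in either direction, and 12.8% had no overlap. The brightest oligodendrocyte marker, Mbp, which weighs most in the sum, averaged 14.20 in methanol and 13.79 in saline and did not pass (adjusted p = 0.097). Astrocyte markers summed to 22130 to 23916 in methanol, against 20659 to 22881 in saline, and neuron markers to 20810 to 21563 in methanol, against 18550 to 21172 in saline, with 0 of 9 and 0 of 5 called. Oligodendrocyte precursor markers summed to 496 to 573 in methanol, against 504 to 664 in saline, and endothelium markers to 1816 to 2048 in methanol, against 1737 to 2242 in saline, with 0 of 3 and 0 of 5 called. Microglia markers summed to 1525 to 1995 in methanol, against 1983 to 2187 in saline, with 1 of 6 lower. The lists of choroid plexus and meninges and of red cells moved with the same groups as the cholesterol genes. Choroid plexus and meninges markers summed to 2387 to 3363 in methanol, against 4004 to 26621 in saline, with 1 of 6 tested lower. Red cell markers summed to 5228 to 6423 in methanol, against 17084 to 22443 in saline, with 3 of 4 tested lower. Of the choroid plexus markers, Folr1 and Kcne2 were detected on 0 methanol arrays and 1 saline array, and of the red cell markers, Slc4a1 was detected on 0 methanol arrays and 4 saline arrays and Epb42 on 0 of either. Their part in the changes of the cholesterol genes was not tested.

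Ttr, the dominant transcript of choroid plexus, read 9.22, 8.61, 9.67 and 8.40 in methanol, against 10.59, 11.50, 14.40 and 7.53 in saline, so that saline array 3 stood apart and saline array 4 was the lowest of all 8 arrays. Dcn, of the choroid plexus and meninges list, read 7.98, 8.42, 8.99 and 8.27 in methanol, against 8.73, 8.88, 10.54 and 10.84 in saline. These values are of its brightest probe, which was highest on saline array 4. Lum was also highest on saline array 4, while Clic6, Kl and Igf2 were highest on saline array 3. Fdps and the brighter probe of Sqle were highest on saline array 4, the dimmer probe of Sqle was highest on saline array 3, and Hmgcs1 read alike on saline arrays 2, 3 and 4. Without saline replicate 3, the 7 genes were all still lower in methanol, Fdps and the brighter probe of Sqle passed, and Hmgcs1 and the dimmer probe of Sqle (-0.39, adjusted p = 0.094) did not. A part of choroid plexus or meninges content in these changes was not tested.

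The calls depended on how the arrays were normalized. With arrays scaled to a common median in place of quantile normalization, 0 of the 10 probes passed, with adjusted p of 0.0532 for Fdps, 0.118 for the brighter probe of Sqle and 0.289 for Hmgcs1. All 10 changes stayed negative and their median was -0.32. Abcg1 and the brightest probe of Cyp27a1 were lost too (adjusted p of 0.262 and 0.0657). The called probes of Nsdhl (adjusted p of 0.023 and 0.011) and the dimmest probe of Cyp27a1 stayed past the threshold. In the table normalized by the authors, which keeps the background, changes were smaller, at -0.15 for Idi1, -0.27 for the dimmer probe of Sqle, 0.20 for Abcg1, 0.27 for the brightest and 0.29 for the dimmest probe of Cyp27a1, and -0.22 and -0.27 for the called probes of Nsdhl. Each of these that had been called stayed past the threshold there.

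**Figure D4:**
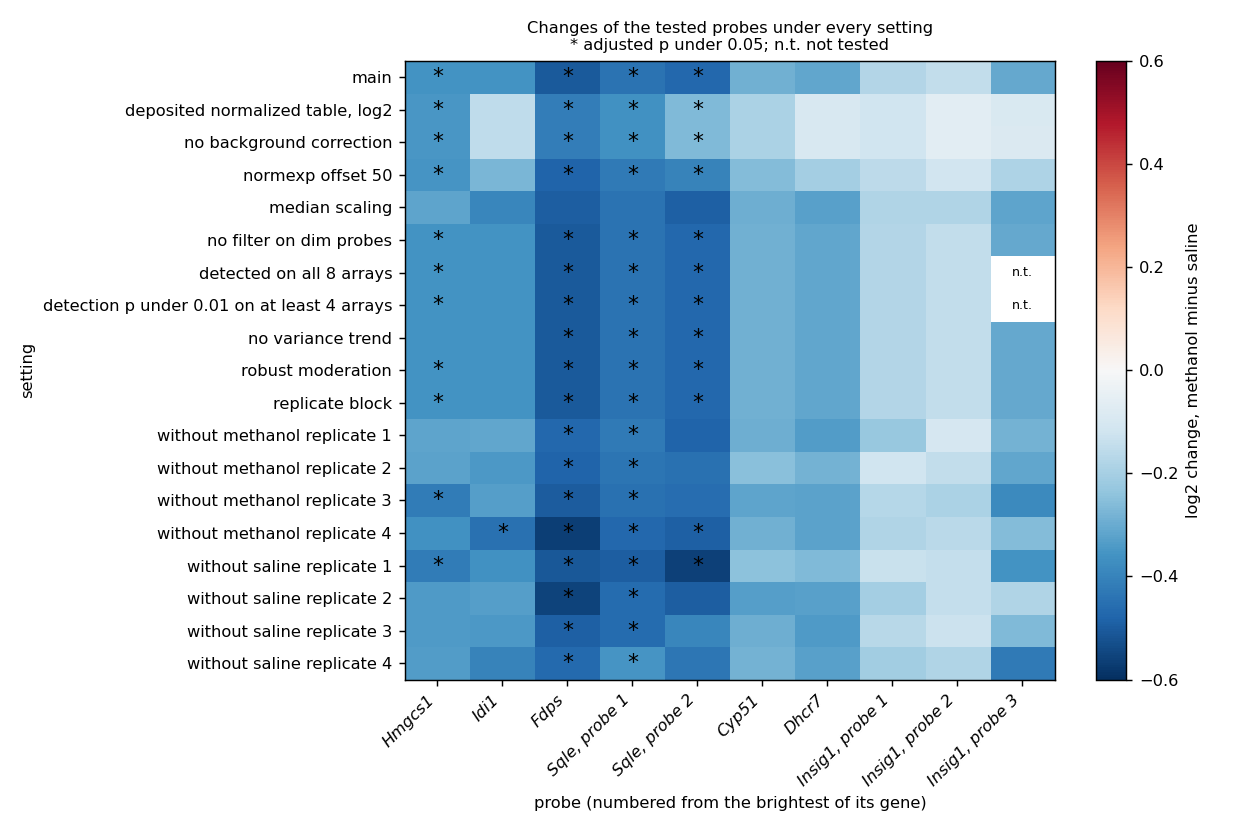
Log2 change, methanol minus saline (colour scale), of the 10 tested probes of the 7 genes (columns) as reported (top row, main) and under 18 alternatives (rows below), with an asterisk where the adjusted p was under 0.05 and n.t. where a probe did not enter. Every cell is blue (lower in methanol), Fdps and the brighter Sqle probe keep the asterisk in all rows but median scaling, and no probe of Cyp51, Dhcr7 or Insig1 has it.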

How the data were processed

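Mouse brain RNA of 4 methanol and 4 saline arrays was measured on Illumina MouseRef-8 BeadChips. The authors deposited 2 tables of intensity per probe for the same arrays, and the methods name GenomeStudio and cubic spline normalization. In the table titled as non-normalized, the sorted intensities were identical on all arrays (largest difference 0), so it had been normalized between arrays, and the authors deposited a detection p-value per probe and array with it. The other table was un-normalized and was the starting point. Its intensities went through neqc of limma 3.58.1 in R 4.3.3, which estimates background by normexp with the help of detection p-values, adds an offset of 16, quantile normalizes and takes log2. Background correction widens the change of dim probes.

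Probes with a detection p under 0.05 on at least 4 arrays (11938 of 25697) were fitted with lmFit and eBayes with a variance trend, and p-values were adjusted by Benjamini-Hochberg over all of them. The fit was tested on simulated data. Of the probes, 23978 had 1 gene name in the platform annotation and 1719 had none. The brightest probe stood for a gene in lists. Some items are not reported here. Probes of different genes were not compared in level. Median intensities were 179.5 to 193.7 on methanol arrays and 175.6 to 195.8 on saline arrays, with 11291 to 12366 and 11855 to 12199 probes detected. Arrays of the same group correlated at 0.981 to 0.989, and arrays of different groups at 0.973 to 0.984. The number of arrays limits the precision.

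Named were all probes of the 8 genes, a few genes by role, list genes past the threshold and the 5 nearest profiles. The further probes of Nsdhl and Cyp27a1 and the cell markers were named after their values were seen. The genes and lists were chosen with earlier results of these data known. Alternatives changed the table, background, scaling, filter, variance model, replicate block and arrays.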

Additional observations from a re-analysis of the deposited data

Results flagged for a closer look

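Of 56 groups of 4 arrays examined for the probes named, 2 held an array far from the other three, by a gap above the critical value of Dixon's test. Chance gives about 1 in 20 such groups. Hmgcs1 had a log2 intensity of 12.87 on saline array 1, where the other saline arrays read 13.14 each (a gap of 0.979 of the range). Without that array the difference of Hmgcs1 was -0.42 and stayed past the threshold. Cyp27a1 had a log2 intensity of 5.98 on saline array 4, where the other saline arrays read 6.48 to 6.50 (a gap of 0.946 of the range). Without that array its difference was 0.52 and no longer passed.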

How the results depend on the processing

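All 10 tested probes of the cholesterol synthesis genes were lower in methanol in every alternative that tested them, and none was called higher. Their median change was -0.17 in the deposited normalized table and -0.17 without background correction, against -0.34, and -0.36 to -0.31 on leaving out each array. Both settings keep the background in the intensities, which shrinks the change of dim probes. With median scaling, 161 probes of the series were called higher and 168 lower, against 372 and 297, and 0 of the 10 probes of the set were called, against 4; the cause was not tested. On leaving out each array the calls of the series were 204 to 466 higher and 152 to 434 lower, and those of the set 2 to 4 lower. Without saline replicate 4, for example, 204 were higher and 160 lower, and 2 probes of the set were lower. Hmgcs1 was also lost without a variance trend, Abcg1 without a filter on dim probes, and Abcg1 and the brightest probe of Cyp27a1 with median scaling. The median of all probes moved by less than 0.01 under every scaling.

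Replicate numbers are shared between the groups. Arrays of the same number deviated together with correlations of -0.11 to 0.25, and 2 of the 4 methanol arrays had their best partner under their own number. These values do not settle whether the numbers mark pairs, and the main fit did not take them as pairs. With the replicate number as a block, 477 probes were called higher and 483 lower, and 4 probes of the set lower. Signal over background limits Idi1, Cyp51, Dhcr7, the dimmer probe of Sqle, Srebf1, the dimmer probes of Insig1 and Nsdhl, and Lss. It also limits Abcg1 and every probe of Cyp27a1, the genes of sterol export and turnover that rose.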
